A study of Drosophila melanogaster with 36 samples.

Results

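The clock mutant per0 was compared with w1118 on the first day of a time course of the Drosophila melanogaster larval fat body. The comparison took in 12 of the 36 RNA-seq libraries of the series. The per0 libraries were 6, with 2 each at circadian time (CT) 0, 4 and 8. The w1118 libraries were also 6, with 2 each at the same times. They were chosen by genotype, day and time from the labels and not from any measured value. The later libraries, from CT12 to CT32, were used only where the first day was set against the night or against the second day.

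All larvae, of both genotypes, were third-instar larvae kept in constant darkness after their parents had been entrained to a light-dark cycle. The larval stage was judged from the mouth hooks, and no finer staging was given. Each library held the dissected fat bodies of 5 larvae of mixed sex, amplified with a SMART-Seq v4 kit, which does not keep the strand. The labels call the duplicates biological replicates without saying that they came from separate cultures, so p-values measure the spread between these pooled samples. per0 carries the arrhythmic allele of period and w1118 the null allele of white. The labels give no shared genetic background, so the period mutation and other differences between the strains cannot be told apart. One w1118 CT0 sample carries a genotype tag that reads per0, against its title, and it was kept as w1118. CG14567, which had 26.9 to 93.5 CPM (counts scaled to 1e+06 per library) in the 6 per0 libraries, had 0.171 and 0.0481 CPM in the w1118 CT0 libraries. This gene was picked because it differed with both of those libraries counted as w1118, so these levels alone are no independent check of the tag. From CT12 to CT32, scaled over all 36 libraries, it had 22.0 to 111 CPM in per0 and at most 0.301 CPM in w1118.

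The fat body is the insect counterpart of liver and adipose tissue: it stores triglyceride and glycogen and secretes most proteins of the hemolymph. During the third instar it makes hexameric storage proteins, the larval serum proteins, in large amounts, and their genes come on as growth ends and the steroid hormone ecdysone rises. period encodes a repressor of the circadian clock, acting with timeless on the activators Clock and cycle. Fat body cells hold such a clock, but whether it ran in these larval fat bodies was not tested here.

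The 6 per0 libraries held 16513757 to 24477943 counts in genes and the 6 w1118 libraries 18281690 to 23839836. A count of 0 allows up to 0.123 to 0.182 CPM in a per0 library and 0.126 to 0.164 CPM in a w1118 library, for counting error only. Levels below are CPM after trimmed-mean scaling over the 12 libraries. CPM are not divided by gene length, so levels are compared between libraries and not between genes.

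Genes that mark other tissues were present in varying amounts. The 5 marker genes of the Malpighian tubule, the renal organ that lies beside the fat body, summed to 558 to 1238 CPM in the per0 CT4 and CT8 libraries, against 3.55 to 151 CPM in the w1118 CT4 and CT8 libraries. At CT0 the same sum was 223 and 1115 CPM in per0, against 274 and 911 CPM in w1118. None of the 5 passed the test over the 3 times, where their median log2 difference was 3.73, but 2 were called higher in per0 at CT8 alone, where the median was 7.44. The 24 midgut markers summed to 23.8 to 29181 CPM in per0, the highest in per0 CT4 B, and to 632 to 5262 CPM in w1118; 18 were tested and none passed. The 37 testis markers, of which 35 were tested and 1 was higher in per0, summed to 27.9 to 239 CPM in per0 and to 16.3 to 941 CPM in w1118, where CT4 B and CT8 B stood at 596 and 941 CPM. Those w1118 libraries also had the highest values on the first principal component, which held 38.2% of the variance, at 108 and 158. On the same side lay w1118 CT8 A at 67.4, and the rest were at 23.0 or less. The 13 hemocyte markers summed to 23024 to 33487 CPM in per0 and 23028 to 30122 CPM in w1118, so the sums overlapped. Of these 13, 1 was called lower in per0, NimC2, and it lost its call when any of 9 single libraries was left out. The fat body markers were present in every library, and 6 of the 12 were lower in per0. The list of 12 includes the 6 storage protein genes described below, of which 5 were called lower. The other marker called was apolpp. In pooled tissue, fewer cells of a type and less RNA per cell cannot be told apart.

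**Figure D1:**
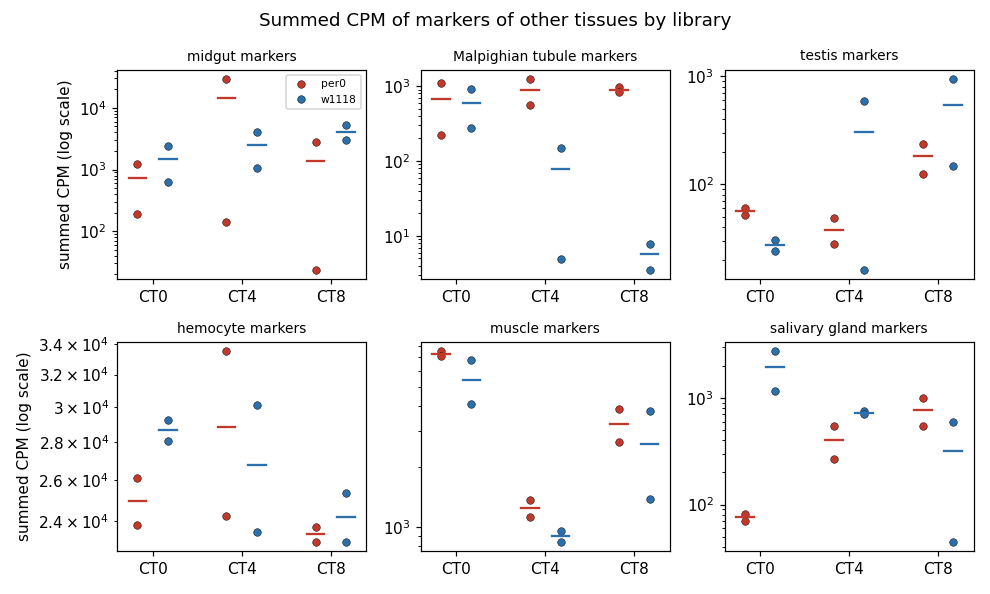
Summed CPM (log scale) of the marker genes of 6 other tissues in each library, by circadian time, with per0 left of w1118 at each time; points are libraries and bars are the means of the 2 libraries. The Malpighian tubule markers lie between 558 and 1238 CPM in per0 at CT4 and CT8, against 3.55 to 151 CPM in w1118.

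Over the 3 times, 2171 of 11059 genes tested differed between per0 and w1118 at an adjusted p under 0.05, which is 19.6% of them (edgeR quasi-likelihood test with Benjamini-Hochberg adjustment), and these are the genes called below. In per0, 1108 were higher (10%) and 1063 were lower (9.61%), and the median log2 difference of all genes was -0.06. The counts of called genes in each list below are to be read against these shares. Most differences were small: the median size among called genes was 0.69 on the log2 scale, and 714 genes changed by at least 1. All 6 libraries of one genotype lay above all 6 of the other for 949 of the tested genes (8.58%), with per0 above for 419 (3.79%) and below for 530 (4.79%), and 904 of them were called. Of the called genes, 2149 had the same sign at CT0, CT4 and CT8. The count of genes lower in per0 dropped to 503 without per0 CT0 A, 629 without per0 CT0 B and 554 without per0 CT8 B, while the count of those higher was 1058, 1332 and 1090. With the mean log2 CPM of the Malpighian tubule markers as a covariate (the tubule covariate), 505 genes passed, of which 474 were among the 2171. The tubule marker sums did not overlap between genotypes at CT4 and CT8, so this covariate is partly confounded with genotype. For a call lost with it, tubule RNA and genotype cannot be told apart. Without per0 CT4 B, w1118 CT4 B and w1118 CT8 B 1731 passed.

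**Figure D2:**
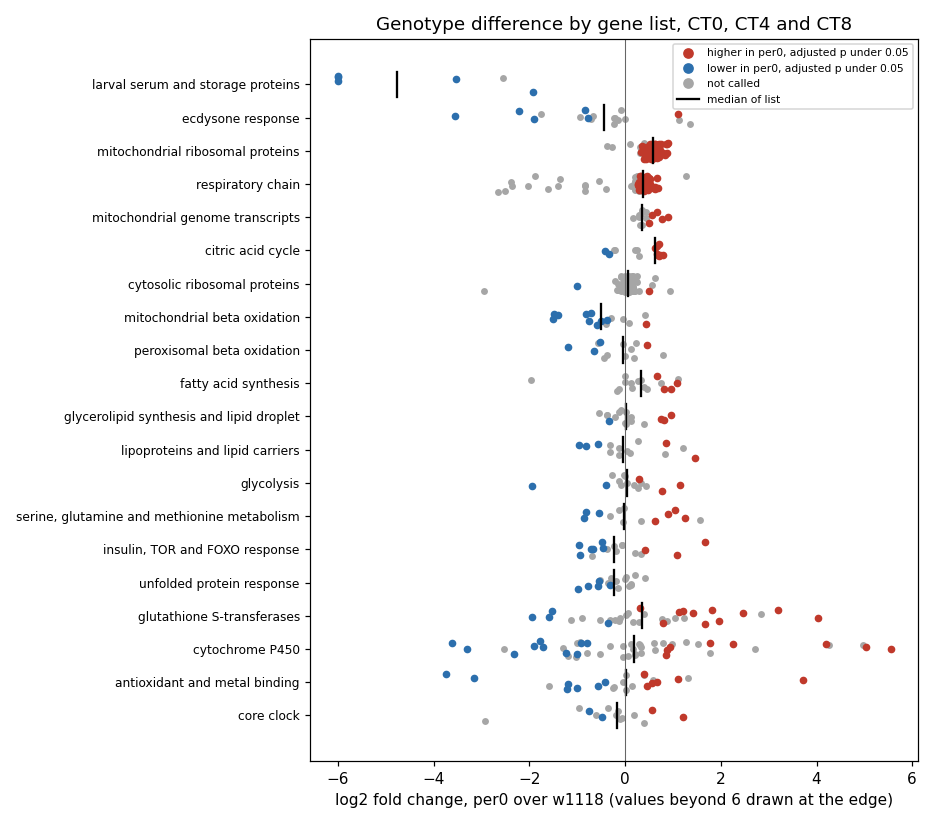
Difference between per0 and w1118 (log2, horizontal axis) for each tested gene of 20 gene lists, one row a list; red marks genes called higher and blue genes called lower in per0, grey those not called, and the black bar is the list's median. The mitochondrial ribosomal and respiratory chain genes lie to the right with medians of 0.57 and 0.37, and the storage proteins far to the left.

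The storage protein genes were far lower in per0. The list under this name holds Lsp1alpha, Lsp1beta, Lsp1gamma and Lsp2, with the fat body protein genes Fbp1 and Fbp2. Of the 6 tested, 5 were called lower and none higher, against 9.61% and 10% of all genes, and the list's median log2 difference was -4.81. Together these genes took 1.03% to 6.23% of a per0 library's counts, against 8.71% to 30.0% of a w1118 library's.

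Lsp2, the single gene of larval serum protein 2, had a lowest, median and highest level of 0, 0.347 and 2.07 CPM in per0, against 18.1, 259 and 2021 CPM in w1118. Every per0 library lay below every w1118 library. The difference was -9.20 ± 1.19 on the log2 scale (standard error, n = 6 each; adjusted p = 0.00109), which stands for a 588-fold lower level in per0.

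Fbp2, a fat body protein of the alcohol dehydrogenase family, showed the same order. It had 0.339, 0.756 and 23.0 CPM in per0, against 58.4, 525 and 20018 CPM in w1118 (lowest, median and highest), without overlap. The per0 CT8 A library, at 23.0 CPM, stood well above the other per0 libraries. The log2 difference was -9.16 ± 1.11 (adjusted p = 0.00082).

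The subunits of larval serum protein 1 differed less. Lsp1alpha had 32.9 and 8.95 CPM at CT0, 426 and 546 CPM at CT4 and 1049 and 14.6 CPM at CT8 in per0, against 4690 and 3412, 11094 and 8911, and 53562 and 26459 CPM in w1118. Every w1118 library was above every per0 library, and the 2 per0 CT8 libraries lay far apart. Its log2 difference was -6.08 ± 1.09 (adjusted p = 0.00496), and it did not pass without the CT0 libraries (adjusted p = 0.0528). Lsp1gamma had 1143, 4196 and 12067 CPM in per0, against 20548, 50551 and 120871 CPM in w1118 (log2 difference -3.54 ± 0.58, adjusted p = 0.00324). With the tubule covariate Lsp1gamma did not pass (adjusted p = 0.0566). Lsp1beta, the most uniform of the 3, had 7739, 39104 and 53926 CPM in per0, against 61294, 109198 and 193443 CPM in w1118, again without overlap (log2 difference -1.92 ± 0.30, adjusted p = 0.00213).

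Fbp1, the receptor through which the fat body takes the storage proteins back, did not pass over the 3 times. It had 0.255, 1.48 and 2.63 CPM in per0, against 1.97, 5.86 and 98.9 CPM in w1118, with overlap (log2 difference -2.56 ± 1.19, adjusted p = 0.175). At CT8 alone the difference was -6.52 (adjusted p = 0.0306).

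**Figure D3:**
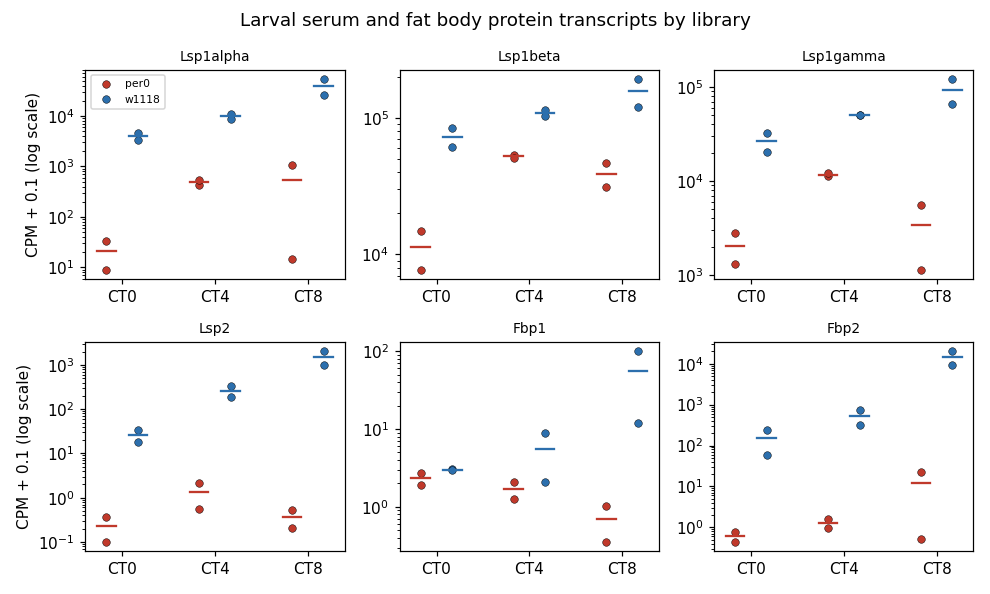
CPM + 0.1 (log scale) of the 6 genes of the storage list, the larval serum proteins with Fbp1 and Fbp2, in each library by circadian time. At each time per0 is left of w1118, points are libraries and bars the means of the 2 libraries. In Lsp1alpha, Lsp1beta, Lsp1gamma, Lsp2 and Fbp2 all 6 per0 libraries lie below all 6 w1118 libraries, and in Fbp1 they overlap.

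Among 18 genes that respond to ecdysone or carry its signal, 5 were lower and 1 was higher in per0, and the median log2 difference was -0.45. Eip74EF, an ETS-domain transcription factor induced early by the hormone, had 2.37, 4.53 and 6.77 CPM in per0, against 12.6, 21.3 and 44.2 CPM in w1118. The groups did not overlap, and the log2 difference was -2.21 ± 0.22 (adjusted p = 0.00019). broad (br), a zinc-finger factor of the same early class, had 4.40, 8.87 and 13.0 CPM in per0, against 20.6, 34.8 and 38.2 CPM in w1118 (log2 difference -1.91 ± 0.22, adjusted p = 0.000472).

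Eip93F, a transcription factor of the larval to pupal transition, was near the floor in per0. It had 0, 0.131 and 0.397 CPM in per0, against 1.65, 2.02 and 2.57 CPM in w1118 (log2 difference -3.56 ± 0.76, adjusted p = 0.00906). The hormone receptor EcR was only moderately lower, at 7.07, 9.66 and 15.2 CPM in per0 and 14.0, 15.1 and 26.3 CPM in w1118, with overlap (log2 difference -0.78 ± 0.17, adjusted p = 0.00961). MsrA, a methionine sulfoxide reductase induced by ecdysone, moved the other way, with 31.8 to 65.7 CPM in per0 and 16.2 to 23.2 CPM in w1118 (log2 difference 1.10 ± 0.16, adjusted p = 0.00156). The count of ecdysone genes lower in per0 was 2 with the tubule covariate and 2 without the CT0 libraries.

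Genes of mitochondrial protein synthesis and of the respiratory chain were mostly higher in per0, by small amounts. Of 72 mitochondrial ribosomal protein genes, 63 were called higher and none lower, 70 had a positive sign, and the median log2 difference was 0.57. Among 77 nuclear genes of the respiratory chain and ATP synthase, 53 were higher and none lower, 63 had a positive sign, and the median was 0.37 in a span of -2.65 to 1.28. All 15 genes tested from the mitochondrial genome had a positive sign, with a median of 0.35, and 5 were called higher.

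mRpL24, a protein of the large mitochondrial subunit, had 55.1, 68.7 and 75.9 CPM in per0, against 25.4, 38.2 and 42.4 CPM in w1118, without overlap (log2 difference 0.90 ± 0.07, adjusted p = 6.1e-05). mRpS31, of the small subunit, had 59.3, 67.4 and 75.7 CPM in per0, against 32, 38.8 and 44.6 CPM in w1118 (log2 difference 0.81 ± 0.08, adjusted p = 0.00019). In both genes the per0 libraries lay in a narrow range above every w1118 library.

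In the respiratory chain, ND-AGGG, a complex I subunit, had 65.8, 77.1 and 80.1 CPM in per0, against 40.1, 48.5 and 52.2 CPM in w1118 (log2 difference 0.67 ± 0.08, adjusted p = 0.000637). UQCR-11, of complex III, had 429 to 538 CPM in per0 and 244 to 376 CPM in w1118 (log2 difference 0.62). Both sets of libraries were separate. The mitochondrially encoded mt:ATPase6 had 3151, 4193 and 5611 CPM in per0, against 2057, 2196 and 2567 CPM in w1118 (log2 difference 0.90 ± 0.14, adjusted p = 0.00212).

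Of 15 genes of the tricarboxylic acid cycle, 8 were higher and 2 lower in per0, with a median of 0.63. All 4 subunits of succinate dehydrogenase were among the 8, with log2 differences of 0.73 (SdhA), 0.67 (SdhB), 0.67 (SdhC) and 0.70 (SdhD). So were the 3 subunits of the NAD-dependent isocitrate dehydrogenase, at 0.63 (Idh3a), 0.69 (Idh3b) and 0.78 (Idh3g). SdhC had 393, 416 and 467 CPM in per0, against 215, 268 and 322 CPM in w1118 (0.67 ± 0.09, adjusted p = 0.000985).

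The mitochondrial lists were not alike in their values at the 3 times, and no gene passed the test of a change over them. Called higher were 1, 21 and 58 mitochondrial ribosomal genes at CT0, CT4 and CT8, with medians of 0.30, 0.60 and 0.82, and 0, 7 and 21 respiratory chain genes, with medians of 0.24, 0.41 and 0.48. Of the mitochondrially encoded genes 0, 4 and 2 were called higher, with medians of 0.04, 0.80 and 0.30, the highest at CT4. The Malpighian tubule sum also differed most at CT4 and CT8. With the tubule covariate, the counts called higher were 9 of 72 mitochondrial ribosomal genes, 6 of 77 respiratory chain genes, 1 of 15 cycle genes and 0 of 15 mitochondrially encoded genes. This covariate cannot tell the part of the tubule cells from genotype, and that part was not tested in any other way. Without the CT4 libraries the counts of mitochondrial ribosomal, respiratory chain and cycle genes called higher were 26, 11 and 1, and without the CT8 libraries they were 32, 17 and 5. Without per0 CT4 B, w1118 CT4 B and w1118 CT8 B they were 46, 25 and 2. In a fit over all 36 libraries they were 52, 10 and 8. Single libraries moved the count of mitochondrially encoded genes: it was 9 without per0 CT0 A, 10 without per0 CT8 B, and 3 without per0 CT4 A, per0 CT4 B, per0 CT8 A, w1118 CT4 A or w1118 CT4 B.

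Genes that burn fat in mitochondria went the opposite way. Of 15 genes of fatty acid beta-oxidation, 9 were lower and 1 was higher in per0, with a median of -0.51. yip2, the mitochondrial thiolase of the last step, had 283, 372 and 532 CPM in per0, against 890, 1150 and 1304 CPM in w1118, without overlap (log2 difference -1.49 ± 0.19, adjusted p = 0.000695). Mtpbeta, a subunit of the trifunctional protein, had 255, 315 and 424 CPM in per0, against 463, 520 and 730 CPM in w1118, also separate (log2 difference -0.76). whd, the carnitine palmitoyltransferase that admits long chains to mitochondria, had 57.6, 152 and 322 CPM in per0, against 268, 356 and 784 CPM in w1118. Its groups overlapped, and the log2 difference was -1.51 ± 0.29 (adjusted p = 0.00548). The hydroxyacyl-CoA dehydrogenase scu and the acyl-CoA dehydrogenase CG4860 were lower by -0.70 and -0.82. The list's count lower was 3 with the tubule covariate, 3 without the CT4 libraries and 5 without per0 CT0 A.

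Of 13 peroxisomal genes 3 were lower and 1 was higher, with a median of -0.04. Catalase (Cat), which breaks down the hydrogen peroxide of peroxisomal oxidation, had 334, 529 and 852 CPM in per0, against 876, 1189 and 1964 CPM in w1118 (log2 difference -1.19 ± 0.24, adjusted p = 0.00658).

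Genes that supply fatty acid synthesis were higher in per0 where they changed. Of 17 genes, 4 were higher and none lower, with a median of 0.32. Both NADPH-making enzymes of the pentose phosphate pathway were among them. Pgd had 1855, 2423 and 2777 CPM in per0, against 1140, 1515 and 1807 CPM in w1118, without overlap (log2 difference 0.66 ± 0.09, adjusted p = 0.00134). Zw had 288, 463 and 659 CPM in per0, against 118, 262 and 384 CPM in w1118, with overlap (log2 difference 0.96, adjusted p = 0.0042). Desat1, the desaturase that makes monounsaturated fatty acids, had 7012 to 9715 CPM in per0 and 3734 to 6973 CPM in w1118 (log2 difference 0.82, adjusted p = 0.00523). The fourth was the fatty acid synthase FASN2, at 1.09 (adjusted p = 0.0109). Without the CT0 libraries 2 genes of the list were higher, and neither Desat1 (adjusted p = 0.0642) nor FASN2 (adjusted p = 0.0925) passed. Desat1 did not pass without the CT4 libraries (adjusted p = 0.0615). Nor did FASN2 with the mean log2 CPM of roX1 and roX2, RNAs made in males, as a covariate (adjusted p = 0.0526).

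Among 17 glycerolipid genes 3 were higher and 1 was lower in per0, against 10% and 9.61% of all genes, with a median of 0.01. Gpdh1, which makes glycerol 3-phosphate for lipid synthesis, had 1313, 2936 and 3347 CPM in per0, against 874, 1397 and 1689 CPM in w1118, with overlap (log2 difference 0.96 ± 0.13, adjusted p = 0.000919). Its mitochondrial partner Gpo1 and the acyltransferase Agpat2 were higher by 0.81 and 0.74. Of 10 lipase genes and their regulators only Hsl passed, at 0.54 (adjusted p = 0.008). The adipose triglyceride lipase bmm had a difference of -0.84 (adjusted p = 0.234) and the adipokinetic hormone receptor AkhR one of -0.64 (adjusted p = 0.0933).

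Of 14 lipid transport genes 2 were higher and 3 lower, against 10% and 9.61% of all genes, with a median of -0.04. apolpp, the apolipoprotein of the main hemolymph lipid carrier, had 6827, 10888 and 12733 CPM in per0, against 15614, 17237 and 22449 CPM in w1118, without overlap (log2 difference -0.81 ± 0.16, adjusted p = 0.00722). The lipophorin receptor LpR2 was higher, with 12.2, 17.7 and 21.3 CPM in per0 and 3.16, 6.69 and 11.3 CPM in w1118, without overlap (log2 difference 1.47 ± 0.28, adjusted p = 0.00517). The sterol carrier Npc2a was lower by -0.96 ± 0.15.

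In glycolysis and gluconeogenesis 3 of 15 genes were higher and 2 lower in per0, against 10% and 9.61% of all genes, with a median of 0.03. Pepck2, a phosphoenolpyruvate carboxykinase, had 23.0, 216 and 308 CPM in per0, against 163, 590 and 913 CPM in w1118, with overlap (log2 difference -1.94 ± 0.25, adjusted p = 0.000772). Pyruvate kinase (Pyk), which works in the opposite direction, had 2992, 3677 and 5075 CPM in per0, against 1787, 2283 and 2667 CPM in w1118, without overlap (log2 difference 0.77). The hexokinase Hex-C had 301, 462 and 527 CPM in per0, against 88.7, 257 and 359 CPM in w1118, with overlap (log2 difference 1.14, adjusted p = 0.00383). Of 10 glycogen genes 1 was higher and 1 lower, the higher one being the phosphorylase Glyp at 0.57.

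Among 13 genes of serine, methionine and cysteine metabolism 4 were higher and 3 lower in per0, with a median of -0.03. Cbs, which commits homocysteine to cysteine synthesis, had 266, 358 and 421 CPM in per0, against 115, 139 and 214 CPM in w1118, without overlap (1.25 ± 0.13, adjusted p = 0.000246). Gnmt, which uses up S-adenosylmethionine in the fat body, had 749, 985 and 1469 CPM in per0, against 348, 555 and 682 CPM in w1118 (log2 difference 1.05 ± 0.13). Cth, the next enzyme after Cbs, was higher by 0.63, and Shmt, which interconverts serine and glycine, was lower by -0.81.

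Of 17 genes of insulin, TOR and FOXO signalling 6 were lower and 3 higher in per0, with a median of -0.22. The largest change in the list was a rise, that of Thor at 1.67, described further below. Thor lost its call when any of 5 single libraries was left out. The fat body signals Gbp1, a growth-blocking peptide, and egr, the fly tumour necrosis factor, were lower by -0.94 and -0.97 (adjusted p = 0.00813 for each). With the tubule covariate no gene of the list was lower by the same test, and all 6 lost their call. The count was 2 without per0 CT8 B and 3 without per0 CT0 A or per0 CT0 B.

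Genes of protein folding and entry into the secretory pathway were lower in per0 where they changed. Of 18 such genes, 5 were lower and none higher, with a median of -0.24. Pdi, which forms disulfide bonds in the endoplasmic reticulum, had 1132, 1593 and 2733 CPM in per0, against 2535, 3438 and 4381 CPM in w1118, with overlap (log2 difference -0.99 ± 0.14, adjusted p = 0.00142). The channel subunits Sec61alpha and Sec61gamma were lower by -0.78 and -0.56. With the tubule covariate 1 gene of the list was lower, and 3 were without per0 CT0 A or per0 CT8 B.

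The genes of detoxification held some of the most evenly separated differences, in both directions. Of 32 glutathione S-transferase genes 11 were higher and 4 lower in per0, with a median of 0.36. GstE9 had 1151, 1282 and 1421 CPM in per0, against 320, 363 and 441 CPM in w1118, without overlap (log2 difference 1.82 ± 0.08, adjusted p = 2.4e-06). GstD7 had 335, 669 and 820 CPM in per0, against 58.9, 212 and 238 CPM in w1118 (log2 difference 1.97 ± 0.14, adjusted p = 2.9e-05). GstD2, GstD6 and GstD9 were higher by 3.19, 1.43 and 1.67, and GstE11 was lower by -1.54. The GstD and GstE genes lie in clusters of similar copies, so reads could have been split between neighbours. The list's count higher was 3 with the tubule covariate, and 7 without per0 CT4 B, w1118 CT0 B or w1118 CT8 A.

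Of 48 cytochrome P450 genes 8 were higher and 10 lower, against 10% and 9.61% of all genes, with a median of 0.19. The count lower was 5 with the tubule covariate and 6 with the mean log2 CPM of roX1 and roX2 as a covariate. Cyp4p1 had 165, 226 and 244 CPM in per0, against 3.65, 6.56 and 9.52 CPM in w1118, a 33-fold higher level in per0 (log2 difference 5.04 ± 0.24, adjusted p = 2.9e-06). Cyp6a23 had 103, 194 and 737 CPM in per0, against 9.73, 10.6 and 27.0 CPM in w1118 (4.19 ± 0.55). No per0 library overlapped a w1118 library in either gene. Cyp4ac2 was lower, with 0.373, 0.742 and 1.42 CPM in per0 and 8.27, 9.46 and 10.9 CPM in w1118 (log2 difference -3.63 ± 0.33, adjusted p = 0.000112), and so was its tandem copy Cyp4ac3, by -3.30. Cyp28a5 had 28.3, 42.9 and 78.1 CPM in per0, against 109, 149 and 224 CPM in w1118 (-1.77 ± 0.24). All of these enzymes belong to a superfamily that oxidises toxins and hormones, and no substrate is given here for any of them.

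Of 23 antioxidant and metal-handling genes 6 were higher and 7 lower, with a median of 0.01. Gclc, the catalytic subunit of the limiting enzyme of glutathione synthesis, had 29.8, 66.1 and 77.0 CPM in per0, against 22.3, 27.7 and 31.0 CPM in w1118, with overlap (log2 difference 1.11). Its regulatory subunit Gclm was higher by 0.67. Transferrin 1 (Tsf1), a secreted iron carrier, had 10.6, 23.0 and 117 CPM in per0, against 356, 413 and 885 CPM in w1118, without overlap (log2 difference -3.74 ± 0.56, adjusted p = 0.00216). The ferritin chain Fer1HCH was lower by -0.57 and the extracellular superoxide dismutase Sod3 by -1.01 ± 0.13.

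Several secreted proteins were far lower in per0. Obp99b, of the odorant-binding protein family, had 39.4, 91.0 and 170 CPM in per0, against 647, 3048 and 13251 CPM in w1118 (log2 difference -5.09 ± 0.50, adjusted p = 0.000241), a 34.0-fold lower level. The complement-like Tep1 had 0.508, 0.973 and 1.57 CPM in per0, against 5.25, 7.59 and 20 CPM in w1118 (log2 difference -3.38 ± 0.32, adjusted p = 0.000146). TotA, a humoral factor induced by stress, had 1.43, 6.69 and 15.0 CPM in per0, against 23.6, 59.2 and 220 CPM in w1118 (log2 difference -3.38 ± 0.43, adjusted p = 0.000803). All 3 were separate between the genotypes. In their lists, 2 of 12 odorant-binding protein genes were higher and 2 lower, with a median of 0.64, and 4 of 10 thioester protein and Turandot genes were lower and 1 higher, with a median of -0.82.

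Of 12 peptidoglycan recognition and related genes 1 was higher and 1 lower. PGRP-SD, a secreted recognition protein, had 124, 304 and 951 CPM in per0, against 21.3, 30.7 and 48.0 CPM in w1118, without overlap (log2 difference 3.41 ± 0.34, adjusted p = 0.000206). SPE, the protease that activates the Toll ligand, had 36.7, 50.4 and 56.1 CPM in per0, against 90.3, 124 and 174 CPM in w1118 (log2 difference -1.39 ± 0.15, adjusted p = 0.000262). In its list of 21 serpins and serine proteases 2 were higher and 4 lower. Of 9 antimicrobial peptide genes 1 was called higher and none lower, with a median of -0.37. The one was Mtk, at 2.33, and it did not pass when any of 8 single libraries was left out, with adjusted p between 0.0556 and 0.0933.

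Adgf-A, an adenosine deaminase that removes extracellular adenosine, had 122, 273 and 399 CPM in per0, against 12.8, 29.8 and 59.2 CPM in w1118. No libraries overlapped, and the level was 9.15-fold higher in per0 (log2 difference 3.19 ± 0.23, adjusted p = 2.9e-05). Of its list of 17 adenosine and purine genes 2 were higher and 1 lower. Among 23 autophagy genes 1 was higher and 1 lower. Atg1, the kinase that starts autophagy, had 35.0, 41.7 and 65.2 CPM in per0, against 14.2, 18.2 and 22.5 CPM in w1118, without overlap (1.305 ± 0.188, adjusted p = 0.00134).

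period RNA (per), the gene mutated in per0, was at the limit of detection in both genotypes. It had 0, 0.220 and 0.560 CPM in per0, against 0.173, 0.289 and 0.639 CPM in w1118, with overlap (log2 difference -0.60 ± 0.75, adjusted p = 0.629). Its RNA therefore gives no check of the labels. Of 14 core clock genes tested 2 were higher and 2 lower in per0, close to the 10% and 9.61% of all genes, with a median of -0.17. Those called higher were Pdp1, an activator in a further loop of the clock, and cwo, a repressor of its targets. Pdp1 had 80.9, 135 and 150 CPM in per0, against 36.3, 51.6 and 81.0 CPM in w1118 (log2 difference 1.22 ± 0.17, adjusted p = 0.0011), and its lowest per0 library fell just under the highest w1118 one. For cwo the levels were 22.2, 26.9 and 32.3 CPM in per0 and 14.7, 18.2 and 21.8 CPM in w1118 (0.56 ± 0.13, adjusted p = 0.0155).

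Both genes called lower act on the stability of the PERIOD protein. dco, the kinase also called double-time, had 29.2, 34.8 and 38 CPM in per0, against 45.4, 46.7 and 54.5 CPM in w1118 (log2 difference -0.49 ± 0.09, adjusted p = 0.00372). slmb, the F-box protein that leads phosphorylated PERIOD to degradation, had 47.9, 57.4 and 62.6 CPM in per0, against 83.3, 93.8 and 110 CPM in w1118 (log2 difference -0.75 ± 0.11, adjusted p = 0.00136). Neither gene overlapped between genotypes. The differences of tim (-0.35, adjusted p = 0.816), vri (-0.10, adjusted p = 0.906), Clk (-2.93, adjusted p = 0.138) and cyc (-0.97, adjusted p = 0.0825) did not pass. Nor did the kinase genes sgg (-0.20), nmo (-0.15), CkIIalpha (0.19) and CkIIbeta (-0.08) or jet (0.40), and cry was too low to be tested.

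Of the 10 tested genes that lie nearest to per on the X chromosome, 5 to either side, 1 was called, against 19.6% of all genes. This was Ugalt at -0.49 (adjusted p = 0.0279), and it did not pass when any of 6 single libraries was left out. By chromosome, the called share was 19.4% on the X, 18.0% on 2L, 22.4% on 2R, 19.1% on 3L, 19.1% on 3R and 24.1% on 4. The eye-colour gene white (w), null in w1118, did not pass at 2.05 (adjusted p = 0.183). The mix of sexes in a pool was tracked by roX1, a male-specific RNA, which had 98.4, 132 and 355 CPM in per0, against 13.7, 93.0 and 165 CPM in w1118 (1.22 ± 0.56, adjusted p = 0.168). Of 7 tested genes of the list for sex composition 1 was lower in per0 and none higher. This was the yolk protein gene Yp2, which kept its call with each single library left out and lost it under 4 other alternatives. With the mean log2 CPM of roX1 and roX2 as a covariate 1311 genes passed.

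Some genes were present in one genotype and almost absent from the other. By the rule of a mean under 0.5 CPM in one genotype and at least 10 CPM in the other, without overlap, there were 17 such genes, 9 found in per0 and 8 in w1118. CG17147 is among the 9 only through per0 CT4 B, at 82.3 CPM, with 1.12 to 2.05 CPM in the other per0 libraries. CG6337, also among the 9, was near the floor in per0 CT8 A (0.289 CPM) and CT0 B (0.715 CPM). Its highest w1118 library had 0.257 CPM, so its separation is within counting error. Few have a described function. CG14567 had 26.9, 68.4 and 93.5 CPM in per0, against 0.0481, 0.0674 and 0.213 CPM in w1118 (log2 difference 9.27 ± 0.41, adjusted p = 2.4e-06). CG14273 had 7.28, 16 and 31.9 CPM in per0 and a highest level of 0.0429 CPM in w1118, where most libraries had no count. sordd2 had 14.2, 18.3 and 24 CPM in per0, against 0, 0.0240 and 0.0857 CPM in w1118 (log2 difference 8.97 ± 0.47).

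Further large rises, without overlap, were those of CG16898 and lncRNA:CR40469. CG16898 had 173, 258 and 896 CPM in per0, against 0.482, 3.03 and 15.3 CPM in w1118 (6.75 ± 0.52). lncRNA:CR40469 had 246, 286 and 999 CPM in per0, against 0.385, 1.01 and 6.98 CPM in w1118 (7.94 ± 0.79). lncRNA:CR44316, CG11581 and CG11893 were higher by 8.28 ± 0.82, 7.54 ± 0.54 and 7.45 ± 0.81. CG6337 was higher by 9.28 ± 1.93, with 0.289 to 168 CPM in per0 and at most 0.257 CPM in w1118. It did not pass with limma-voom, without the CT4 libraries, or with the roX1 and roX2 covariate or the tubule covariate. CG17826 ranked among the 12 largest rises through one library. It had 306 CPM in per0 CT4 B and at most 0.564 CPM in the other per0 libraries, and without per0 CT4 B its difference was 2.17 (adjusted p = 0.267). CG13075 did not pass without per0 CT0 A (adjusted p = 0.0724), per0 CT4 A (0.0753) or per0 CT8 B (0.0852). Alp7, an alkaline phosphatase, did not pass without per0 CT0 A (adjusted p = 0.0537), w1118 CT4 A (0.0513) or w1118 CT4 B (0.0549).

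On the other side, CG17636 had no count in any per0 library, against 3.95, 16 and 31.8 CPM in w1118, which makes it at least 673-fold lower in per0, with 3 counts over the 6 libraries as the floor (adjusted p = 0.00458). The nicotinic receptor subunit nAChRalpha7 had 0, 0.258 and 1.16 CPM in per0, against 23.6, 39.0 and 72.2 CPM in w1118. Hs3st-A, a heparan sulfate sulfotransferase, had 0, 0.158 and 0.541 CPM in per0, against 10.5, 25.8 and 45.2 CPM in w1118. Both were separate, with log2 differences of -6.57 and -6.76. CG17230 was low but detected in every per0 library, with 0.453, 0.777 and 1.99 CPM in per0, against 55.3, 68.6 and 90.4 CPM in w1118 (-6.23 ± 0.34). The noncoding lncRNA:CR30121 had at most 0.0376 CPM in per0, against 7.41, 14.6 and 33.2 CPM in w1118. CG7763, mthl8 (a receptor of the Methuselah family) and CG12541 were lower by -9.30 ± 0.77, -5.73 ± 0.41 and -5.52 ± 0.62. CG7763 did not stay absent from per0. On the second day, scaled over all 36 libraries, it had 0, 27.0 and 73.3 CPM in per0, against 39.2, 65.65 and 169 CPM in w1118. Its difference was -7.13 ± 1.51 further down on the first day (interaction test, adjusted p = 0.0417). asRNA:CR43833 differed by -10.20, but without strand its reads cannot be told from those of the gene it overlaps.

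**Figure D4:**
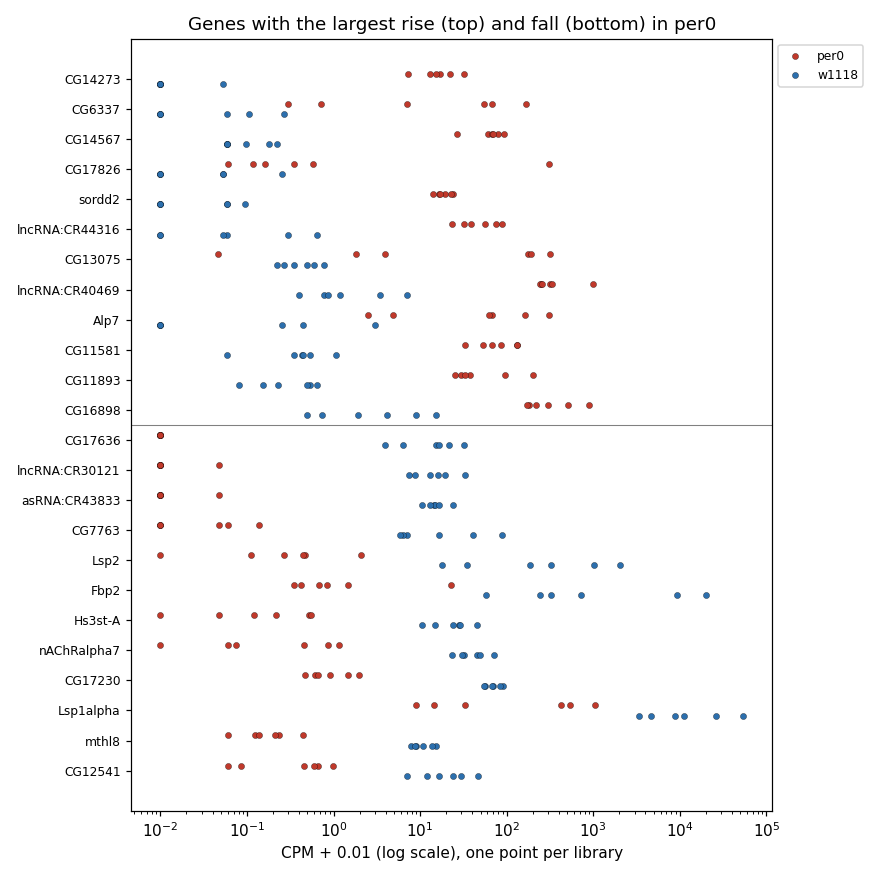
CPM + 0.01 (log scale) in each library for the 12 largest rises (top) and the 12 largest falls (bottom) in per0; each point is a library, with per0 drawn above w1118. CG17826 is the gene whose per0 points all lie low but for 306 CPM in CT4 B.

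Of 84 cytosolic ribosomal protein genes 1 was higher and 1 lower in per0, with a median of 0.07. Those were RpS14a (0.50) and RpS14b (2.001-fold lower in per0), near-identical neighbours whose reads could be split either way. Of 31 proteasome genes 2 were lower and none higher, with a median of -0.08, and of 19 tRNA synthetase genes none passed, with a median of -0.07. Of 21 ribosome biogenesis genes 1 was higher. Of the smaller lists, of 12 heat shock genes 2 were higher, of 8 juvenile hormone genes 2 were higher and 1 lower, of 7 maltase genes 1 was lower and of 10 basement membrane genes 1 was lower. Markers of muscle (18 genes) gave no call, and those of neurons (14 genes), ovary (11 genes) and salivary gland (4 genes) gave 1 lower each. Of 16 larval cuticle genes, products of the epidermis, 4 were higher and none lower, and the sum of all 21 on the list was 151 to 1390 CPM in per0 and 89.2 to 431 CPM in w1118.

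At single times, with 2 libraries a genotype, fewer genes passed. At CT0 171 genes differed (1.55%), 83 higher and 88 lower in per0 (0.751% and 0.796%). At CT4 it was 526 (4.76%), 312 higher and 214 lower (2.82% and 1.94%), and at CT8 777 (7.03%), 488 higher and 289 lower (4.41% and 2.61%). The split at CT4 depended on scaling: upper-quartile scaling gave 260 higher and 395 lower. Single libraries moved these counts. The CT0 count was 51 without per0 CT0 A, 74 without per0 CT0 B, 44 without w1118 CT0 A and 66 without w1118 CT0 B. The CT4 count was 182 and 130 without per0 CT4 A and B, 139 and 92 without w1118 CT4 A and B, 256 and 246 without per0 CT0 A and B, 256 and 326 without w1118 CT0 A and B, and 349 without per0 CT8 B. The CT8 count was 463 and 137 without per0 CT8 A and B, 65 and 516 without w1118 CT8 A and B, and 517 without w1118 CT0 A. The CT8 split turned without either w1118 CT8 library, to 29 higher and 36 lower without A and to 235 higher and 281 lower without B. At all 3 times 106 genes were called. Of the 6 storage genes, 2, 1 and 5 were called lower at CT0, CT4 and CT8.

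No gene passed the test of whether the difference between per0 and w1118 itself changed over CT0, CT4 and CT8 (edgeR quasi-likelihood test; 798 at an unadjusted p under 0.05, 253 with DESeq2 and 0 with limma-voom). The count was 9 without per0 CT4 A and 1 without per0 CT4 B. The gene nearest to passing was Thor, the fly 4E-BP, a brake on translation that FOXO switches on. Thor had 215 and 207 CPM at CT0, 195.5 and 133 CPM at CT4 and 143 and 152 CPM at CT8 in per0, against 45.4 and 40.6, 23.8 and 28.3, and 162 and 158 CPM in w1118. The genotypes were apart at CT0 and CT4 and at like levels at CT8. Its log2 differences were 2.32 (adjusted p = 0.00177), 2.68 (adjusted p = 0.000897) and -0.14 (adjusted p = 0.748), a range of 2.82 whose test gave an adjusted p of 0.0634. Over the 3 times its difference of 1.67 ± 0.45 (adjusted p = 0.0272) did not pass without per0 CT4 A (0.0509), w1118 CT0 A (0.0675), w1118 CT0 B (0.076), w1118 CT4 A (0.0777) or w1118 CT4 B (0.08).

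The next 4 genes by p, which also did not pass, are given as a description. Sil1, a cofactor of endoplasmic reticulum chaperones, had 67.7 to 101 CPM in per0 at CT0 and CT4 and 15.1 and 17.2 CPM at CT8, against 21 to 27.5 CPM in all w1118 libraries (range of the log2 differences 2.53, adjusted p = 0.121). The transferase GstE8 had 7.22 to 17 CPM in all per0 libraries, against 17 and 17.2 CPM at CT0 and 73.3 and 70.6 CPM at CT8 in w1118 (range 2.67, adjusted p = 0.219). CG2004 had 223 and 234 CPM at CT0 and 45.8 and 33.6 CPM at CT8 in per0, against 66.5 and 61.2 CPM and 43.7 and 44.2 CPM in w1118 (range 2.03, adjusted p = 0.272). CG43658 had 20.1 and 19.9 CPM at CT8 in per0, against 7.95 and 7.54 CPM in w1118, and levels between 7.98 and 9.65 CPM in per0 and between 8.43 and 12.9 CPM in w1118 at CT0 and CT4 (range 1.85, adjusted p = 0.338).

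Whether the first day differed from other times was asked by subtracting the per0 to w1118 difference of the second day (CT24 to CT32), and of the night (CT12 to CT20), from that of the first day. The 2 comparisons share the first-day libraries, so they are not independent of each other or of the results above. Levels in this account are CPM scaled over all 36 libraries. The per0 CT28 B library stood between the genotypes, with CG14567 at 22.0 CPM against 51.2 to 111 CPM in the other later per0 libraries and nAChRalpha7 at 14.8 CPM against at most 0.598 CPM.

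Against the second day 72 of 11815 genes passed (0.609%), 10 more positive (0.0846%) and 62 more negative (0.525%) on the first day, with a median shift of all genes of 0.30. Without per0 CT28 B 306 passed, all 72 among them, and the split was 142 more positive and 164 more negative. The count was 86 without per0 CT24 B, 88 without w1118 CT28 B and 15 to 54 without any other single library, the fewest without per0 CT0 A or w1118 CT8 A. The storage genes stood out in size, with 5 of 6 more negative on the first day and a median of -4.16. Lsp2 had 0, 0.306 and 1.84 CPM in per0 and 15.9, 226 and 1784 CPM in w1118 on the first day. On the second day it had 66.3, 2797 and 3714 CPM in per0 and 2794, 3827 and 4693 CPM in w1118. Its per0 to w1118 difference was -8.11 ± 1.3 further down on the first day (adjusted p = 0.0126). Lsp1beta had 7026, 33619 and 48053 CPM in per0 and 53772, 94179 and 170757 CPM in w1118 on the first day, and 120906, 187222 and 313194 CPM in per0 and 134735, 145847 and 167218 CPM in w1118 on the second, where the genotypes overlapped (-1.99 ± 0.33, adjusted p = 0.0129).

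The same pattern held for genes outside storage. CARPB, a carbonic anhydrase-related protein, had 0.670, 2.37 and 5.81 CPM in per0 and 25.1, 44.3 and 144 CPM in w1118 on the first day. On the second day it had 21.2, 128 and 351 CPM in per0 and 137, 163 and 306 CPM in w1118 (-3.69 ± 0.50, adjusted p = 0.00473). Npc2g, a secreted sterol-binding protein, had 701, 970 and 1453 CPM in per0 and 1858, 2104 and 2677 CPM in w1118 on the first day, and 1676, 2292 and 3068 CPM in per0 and 1558, 1781 and 2215 CPM in w1118 on the second (-1.16 ± 0.17, adjusted p = 0.01). In each the genotypes were separate on the first day and overlapped on the second.

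Against the night 136 of 11750 genes passed (1.16%), 21 more positive (0.179%) and 115 more negative (0.979%) on the first day, with a median shift of all genes of 0.10. The count was 239 without per0 CT16 B and 8 to 109 without any other single library, the fewest without w1118 CT4 A or w1118 CT8 A. Without per0 CT20 A the split was 32 more positive and 38 more negative. Kr, a zinc-finger transcription factor, had 9.02, 16.3 and 25.6 CPM in per0 and 68.5, 73.1 and 127 CPM in w1118 on the first day. In the night it had 27.1, 41.2 and 58.6 CPM in per0 and 33.5, 45.3 and 51.2 CPM in w1118 (-2.40, adjusted p = 0.00266). The stress factor TotA had 24.6, 156 and 294 CPM in per0 and 32.7, 77.5 and 102 CPM in w1118 in the night (-4.25, adjusted p = 0.013). A gene more positive on the first day was ringer, a microtubule-binding protein, with 25.6, 43.9 and 72.2 CPM in per0 and 13.4, 15.2 and 26.1 CPM in w1118 on the first day, and 36.2, 43.6 and 60.8 CPM in per0 and 36.5, 47.0 and 67.2 CPM in w1118 in the night (1.45, adjusted p = 0.0155). Of the storage genes 2 were more negative on the first day than in the night; Lsp2 (adjusted p = 0.094) and Fbp2 (adjusted p = 0.288) did not pass.

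For other genes the first-day difference showed no change that passed either test. GstE9 and Cyp4p1 had adjusted p of 0.552 and 0.572 against the second day, and Cyp4p1 had 145 to 247 CPM in the later per0 libraries other than CT28 B, against 3.53 to 10.9 CPM in the later w1118 libraries. CG14567 had 51.2 to 111 CPM in those per0 libraries, against 0 to 0.301 CPM in w1118. nAChRalpha7 had at most 0.598 CPM in them, against 13.6 to 83.6 CPM in w1118. mRpL24 had 16.2 to 55.6 CPM in those per0 libraries, against 10.8 to 28.6 CPM in w1118, with overlap.

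**Figure D5:**
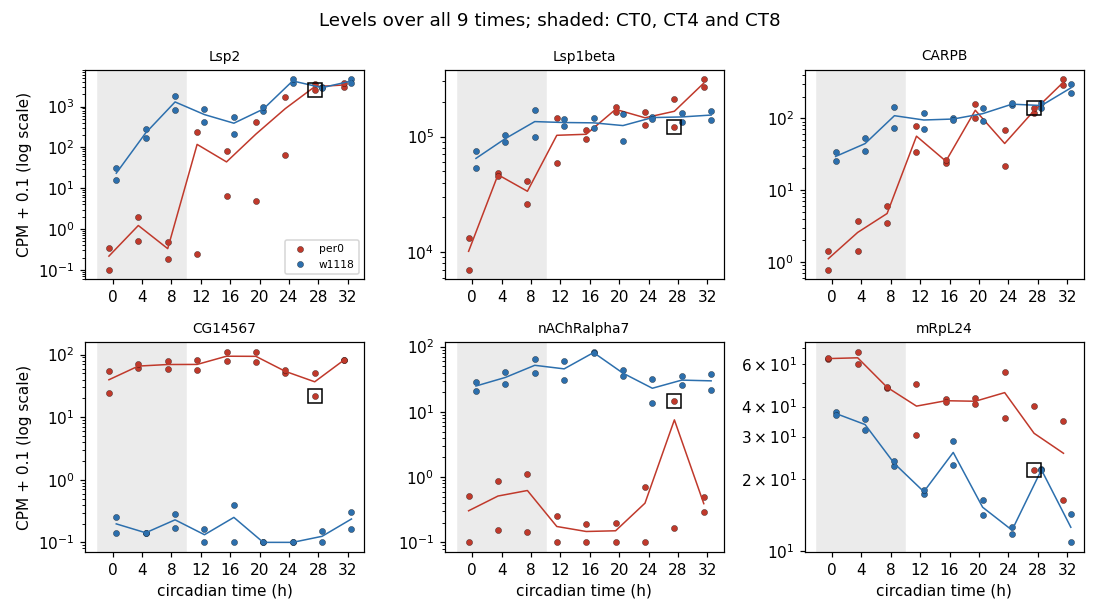
CPM + 0.1 (log scale) of 6 genes at the 9 circadian times in per0 and w1118; points are libraries, lines join the means of the 2 libraries, the shaded span is CT0 to CT8 and the square marks per0 CT28 B. Lsp2 and Lsp1beta are apart on the first day and come together later, while CG14567 stays apart at all times and nAChRalpha7 at all times but for the square.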

How the data were processed

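Gene counts from 36 SMART-Seq v4 libraries were used as the authors deposited them, one table of raw counts for each genotype. Per the submitters' processing notes, the tools included STAR 2.7.9a, featureCounts, edgeR and DESeq2 1.30.1; no source used here gives the genome build. The deposited normalised values were scaled within each genotype and were not used.

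The tables held 17610 genes, of which 17591 matched RefSeq, used for names and gene order only. Column letters A and B name libraries. Genes kept by edgeR's filterByExpr were scaled by trimmed mean of M-values. They were fitted with a robust quasi-likelihood model (edgeR 4.0.16, R 4.3.3) with genotype and time as additive terms. The coefficient was a common per0 minus w1118 difference shared by the 3 times. Separate fits with a difference for each time gave the values at single times and the test of a change over them. P-values were adjusted by Benjamini-Hochberg over all genes tested and called under 0.05. The comparisons with the second day and the night were fitted over 24 libraries each, and levels there are CPM over 36 libraries. Standard errors follow ±. They were taken as the size of the log2 difference over the square root of its F statistic, so they are approximate, most of all near 0 counts. Ranges are lowest, median and highest. Depth was 16513757 to 24477943 counts, so 3 counts are 0.123 to 0.182 CPM; amplified reads carry no molecular identifiers, and such floors cover counting error only.

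Alternatives were DESeq2 1.42.0, limma-voom (limma 3.58.1), other scalings and filters, each library or time left out, marker or roX covariates, and a fit over all 36 libraries. A covariate was the mean over a marker list of each gene's log2 CPM, with a prior count of 0.5. The test was checked on simulated counts.

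Members and the 50 gene lists (1087 of 1099 entries matched) were chosen with earlier results of these data known. Named genes were the 12 largest called rises and falls of at least 10 CPM, the core clock genes, up to 4 genes of smallest p per list, the genes beside per, and the genes of smallest p in each interaction; other named members were chosen after their values were seen. No sequence is shown, since none was at hand.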

Additional observations from a re-analysis of the deposited data

Results flagged for a closer look

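Single libraries stood apart from the other 5 of their genotype in 11 of 70 sets of 6 values tested by Dixon's criterion (15.7%; chance gives about 1 set in 20). Among marker sums these were the hemocyte sum of per0 CT4 A, at 33487 CPM, and the salivary gland sum of w1118 CT8 A, at 44.7 CPM. In per0 they were Fbp2 in CT8 A (23.0 CPM), CG14567 in CT0 B (26.9 CPM), CG17826 in CT4 B (306 CPM), lncRNA:CR40469 in CT8 A (999 CPM), lncRNA:CR30121 in CT0 B (0.0376 CPM) and asRNA:CR43833 in CT0 A (0.0373 CPM). In w1118 they were CG14273 in CT0 A (0.0429 CPM), Alp7 in CT0 A (3.00 CPM) and CG17826 in CT4 B (0.241 CPM). The values of CG14273, lncRNA:CR30121 and asRNA:CR43833 lie under the level of 3 counts in a library.

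The per0 to w1118 difference of the first day differed from that of the second day in 72 genes by an interaction test. The 10 named were CARPB (-3.69), alpha-Est1 (-1.45), Npc2g (-1.16), NimB3 (-0.93), Lsp2 (-8.11), AnxB10 (-2.10), CG3961 (-2.68), Dera (-0.99), Lsp1beta (-1.99) and Kr (-2.14), all more negative on the first day on the log2 scale. It differed from that of the night in 136 genes. Named were Kr (-2.40), CARPB (-3.70), CG6067 (-1.98), CG34348 (-2.31), TotA (-4.25), CG31248 (-2.14), CG8738 (-1.06), Ldsdh1 (-1.15) and Nepl15 (-1.12), more negative on the first day, and ringer (1.45), more positive. Both sets rest on the same first-day libraries.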

How the results depend on the processing

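The count of genes that differed over the first day was 2171. It was 1360 without the CT0 libraries, 777 without CT4, 1134 without CT8, 1311 with roX1 and roX2 as a covariate, 505 with the tubule covariate (added after seeing the data) and 714 at a log2 difference of at least 1. Leaving out single libraries gave 1561 to 1996. It was 3025 with DESeq2, 2174 with limma-voom, 2281 with upper-quartile scaling, 2007 with no filter, 1604 over all 36 libraries, and 1731 without per0 CT4 B, w1118 CT4 B and w1118 CT8 B and 1999 without the storage genes (both added after seeing the data). For the change over the 3 times DESeq2 gave 253, no filter 1 and single libraries left out 0 to 9. For CT0, DESeq2 gave 831, a minimum of 10 CPM 349 and single libraries left out 44 to 209. For CT4, DESeq2 gave 1816, limma-voom 294, the minimum 989 and single libraries 92 to 569. For CT8, DESeq2 gave 1598, limma-voom 511 and single libraries 65 to 812. Against the second day DESeq2 gave 593, no filter 45 and single libraries 15 to 306, the 306 without per0 CT28 B. Against the night DESeq2 gave 657, upper-quartile scaling 230, the minimum 238 and single libraries 8 to 239. The cause of these differences between tools was not tested. Of 189 called genes followed by name, 134 kept their call with each of the 12 libraries left out and 76 kept it under every alternative run, and none changed sign. The tubule covariate, which is partly confounded with genotype at CT4 and CT8, ended the call of 98 of them. No paired analysis was possible because the columns carry letters that no label ties to the replicate numbers.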
